A study of Mus musculus with 2 samples.

Results

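Aminoacyl-tRNA synthetases join each amino acid to its transfer RNA (tRNA), and they were followed here as 36 genes, 20 for the cytosolic and 16 for the mitochondrial enzymes, of 24532 gene IDs in the deposited table. The genes were chosen by name, not by their values: rows whose Entrez ID belongs to a synthetase symbol were taken, the rows of a gene were summed, and names ending in 2 were set apart as mitochondrial. The libraries came from freshly sorted limb muscle stem cells (MuSCs, the Pax7-expressing stem cells of skeletal muscle) of male C57BL/6 mice, 1 wild-type (WT) and 1 double-knockout (dKO) library. The dKO genotype combines Pax7-CreER, a tamoxifen-inducible Cre recombinase driven by Pax7, with Esr2–/–, a homozygous null of the estrogen receptor beta gene, and with another gene made deletable by Cre, which is not named here. The same protocol is attached to both libraries: tamoxifen was given by mouth (20 mg/mL) on 5 days to mice aged 3 months. Titles carry the mark 6M, whose meaning, like the number of mice behind each library and the alleles of the WT mice, is not stated in these sources. The comparison bears on what the dKO genotype does to these cells, and with 1 library per group every difference below is between these 2 libraries, with no replicate check and no test.

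Each synthetase recognises 1 amino acid and the tRNAs that carry it, and the charged tRNA is then delivered to the ribosome. Cytosol and mitochondria translate separately, so most amino acids have a cytosolic enzyme and a second enzyme that is encoded in the nucleus and imported into mitochondria. The gene pairs do not cover every amino acid in the same way. Gars and Kars, for glycine and lysine, each make both forms from 1 gene, Eprs joins the glutamate and proline enzymes in a single protein, and Farsa and Farsb encode the subunits of the cytosolic phenylalanine enzyme. Many genes of the cytosolic enzymes are known targets of Atf4, the transcription factor that raises amino acid supply and tRNA charging when cells sense amino acid shortage or stress in the endoplasmic reticulum.

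Reads in the table came to 36636680 for WT and 43699831 for dKO. Values are counts per mega-read (CPM) of the TMM-scaled library size, and the log2 ratio is that of dKO CPM + 1 over WT CPM + 1. A gene counted as measured if it had 10 or more counts in 1 of the libraries, which held for 14885 genes and by all 36 synthetases, and folds of at least 1.5 and at least 2 on that log2 scale were the rules of size. Esr2 had 71 counts in WT and 45 in dKO (ratio 0.634, 95% interval 0.426 to 0.933), and since the deleted part of the gene is not given, these counts check nothing about the label. All 9 listed muscle stem cell markers were measured, 5 with a log2 ratio above and 4 below 0, and most of the rise of their sum from 6727 CPM in WT to 9005 CPM in dKO lay in Sdc4 (2980 and 4872 CPM). Pax7, the defining transcription factor, had 22335 and 12620 counts. Markers of other cell types were lower in dKO, while 4.30% of all measured genes were lower by 2-fold. The 11 endothelial markers summed to 614 CPM in WT and 275 CPM in dKO, with 11 of 11 lower and 9 lower by 2-fold. The 11 immune markers summed to 123 and 27.6 CPM, with 11 of 11 lower and 10 lower by 2-fold, and the 5 fibro-adipogenic markers to 143 and 38.7 CPM, with 5 of 5 lower by 2-fold. None of these markers was at 0 in either library. Their part in the synthetase values was not tested, and in such bulk RNA fewer cells of a type and less RNA per cell cannot be told apart.

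Cytosolic synthetase mRNAs were mostly more abundant in the dKO library, and mitochondrial ones were about level. Of 20 cytosolic enzymes, 16 had a log2 ratio above 0 and 7 were at least 1.5-fold higher, against 8.98% of all measured genes, while 0 were 1.5-fold lower, against 13.1%. By 2-fold, 2 were higher (1.92% of all measured genes) and 0 lower (4.30%). The cytosolic median log2 ratio was 0.36 and ran from −0.48 to 1.63. Of 16 mitochondrial enzymes, 6 were above 0, 0 were 1.5-fold higher and 2 were 1.5-fold lower, a share near that of all measured genes (13.1%), with a median of −0.01 and a range from −0.84 to 0.46. Over all measured genes the median was −0.02 and 47.6% were above 0.

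Cytosolic enzymes had more reads per gene, and highly counted genes as a whole stood higher in dKO. The 5040 measured genes between the lowest and the highest cytosolic enzyme in mean CPM (29.3 to 402) had a median log2 ratio of 0.13. Of them, 62.6% were above 0 and 12.6% at least 1.5-fold higher. The 10199 genes in the range of the mitochondrial enzymes (0.425 to 54.7 CPM) had one of −0.09. Of these genes, 41.2% were above 0 and 6.67% at least 1.5-fold higher. When a cubic trend on abundance and transcript length over all measured genes was removed, the cytosolic median was 0.22 and the mitochondrial one 0.09, and their difference went from 0.37 to 0.13. With library totals in place of TMM, 12 of 20 cytosolic enzymes were above 0 and the medians were 0.11 and −0.25, while the median of all measured genes moved from −0.02 to −0.24. Both the trend removal and the library totals left 4 cytosolic enzymes at least 1.5-fold higher.

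**Figure D1:**
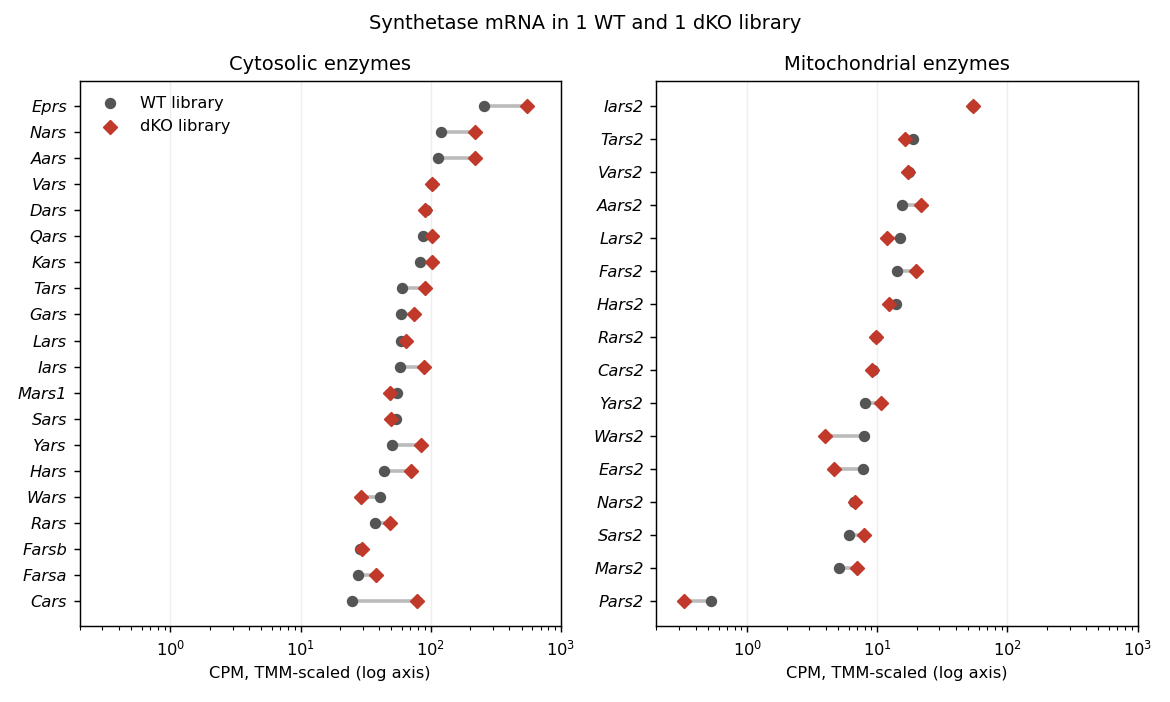
Level of each synthetase mRNA in CPM on a log axis, with 1 grey circle for the WT and 1 red diamond for the dKO library. CPM is not corrected for transcript length, so the gap within a row, not the order of rows, is to be read: Cars has the widest gap among cytosolic enzymes and Iars2 almost none.

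The summed reads showed the same contrast without the need to scale the libraries. Cytosolic enzymes took 58285 reads in WT and 87366 in dKO, and mitochondrial enzymes 8422 and 8549. The mitochondrial share of all synthetase reads was thus 12.6% in WT (exact binomial 95% interval 12.4 to 12.9) and 8.91% in dKO (8.73 to 9.10), intervals that cover counting error only. The dKO to WT ratio of the cytosolic sum was 1.48 times that of the mitochondrial sum (1.43 to 1.52). On the TMM scale the cytosolic sum was 1.5-fold higher (1.48 to 1.51) and the mitochondrial sum had a ratio of 1.01 (0.985 to 1.05). The sum of all measured genes in the CPM range of the cytosolic enzymes had a ratio of 1.13. In the range of the mitochondrial enzymes it had one of 0.972. A pair of genes carried much of the cytosolic difference. Eprs and Nars held 25.9% of the cytosolic reads in WT and 35.2% in dKO, and without them the cytosolic sum was 1.31-fold higher (1.30 to 1.33).

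The synthetase with the widest gap was Cars, the cysteine enzyme (Entrez 27267, chromosome 7, 143557230 to 143600090 on GRCm38). Cars had 987 counts or 24.7 CPM in WT and 3134 counts or 78.3 CPM in dKO, a 3.17-fold higher level (2.95 to 3.41). Per transcript length, in RPKM (reads per kilobase and mega-read), it was the least abundant cytosolic enzyme in WT, at 8.0 RPKM, and stood above 9 others in dKO, at 25.9 RPKM. Its table rows moved unequally: the row of 2973 bases went from 525 to 2481 counts and the row of 3222 bases from 462 to 653. Both rows were higher in dKO, and reads that fit either row may have been divided between them.

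Eprs, which encodes the joint glutamate and proline enzyme (Entrez 107508, chromosome 1, 185361417 to 185428360), was the other enzyme past 2-fold and the most abundant member. Eprs had 10324 counts or 258 CPM in WT and 21873 counts or 547 CPM in dKO, 2.12-fold higher (2.07 to 2.17). Per transcript length, at 53.2 RPKM in WT and 113 RPKM in dKO, it had the highest mean of all 36 members. Next in size were Aars and Nars, for alanine and asparagine. Aars (Entrez 234734, chromosome 8, 111027778 to 111055569) had 4581 counts in WT and 8844 in dKO, or 115 and 221 CPM, which is 1.93-fold higher (1.86 to 2.0). Nars (Entrez 70223, chromosome 18, 64499655 to 64516515) had 4783 and 8846 counts, or 120 and 221 CPM, 1.85-fold higher (1.78 to 1.92), and both of its rows were higher by like amounts (log2 ratios of 0.99 and 0.81). Aars and Nars thus differed by like factors, and both stayed under 2-fold.

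The other 3 cytosolic enzymes past 1.5-fold were those for tyrosine, histidine and isoleucine. Yars (Entrez 107271, chromosome 4, 129189734 to 129219240) had 2029 counts in WT and 3382 in dKO, 1.67-fold higher (1.58 to 1.76). Hars (Entrez 15115, chromosome 18, 36766528 to 36783205) had 1744 and 2807 counts, 1.61-fold higher (1.52 to 1.71). Iars (Entrez 105148, chromosome 13, 49682130 to 49734267) had 2346 and 3551 counts, 1.51-fold higher (1.44 to 1.59), and lay just inside the rule at a log2 ratio of 0.59. Tars, for threonine, lay just outside it at 0.58 (2428 and 3654 counts). Its ratio of CPM was 1.504 (1.43 to 1.58), so only the pseudocount took it below the rule. Of the 7, Cars, Eprs, Aars and Nars stayed past 1.5-fold under library totals, and Cars, Eprs, Aars and Yars did so with the abundance and length trend removed.

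**Figure D2:**
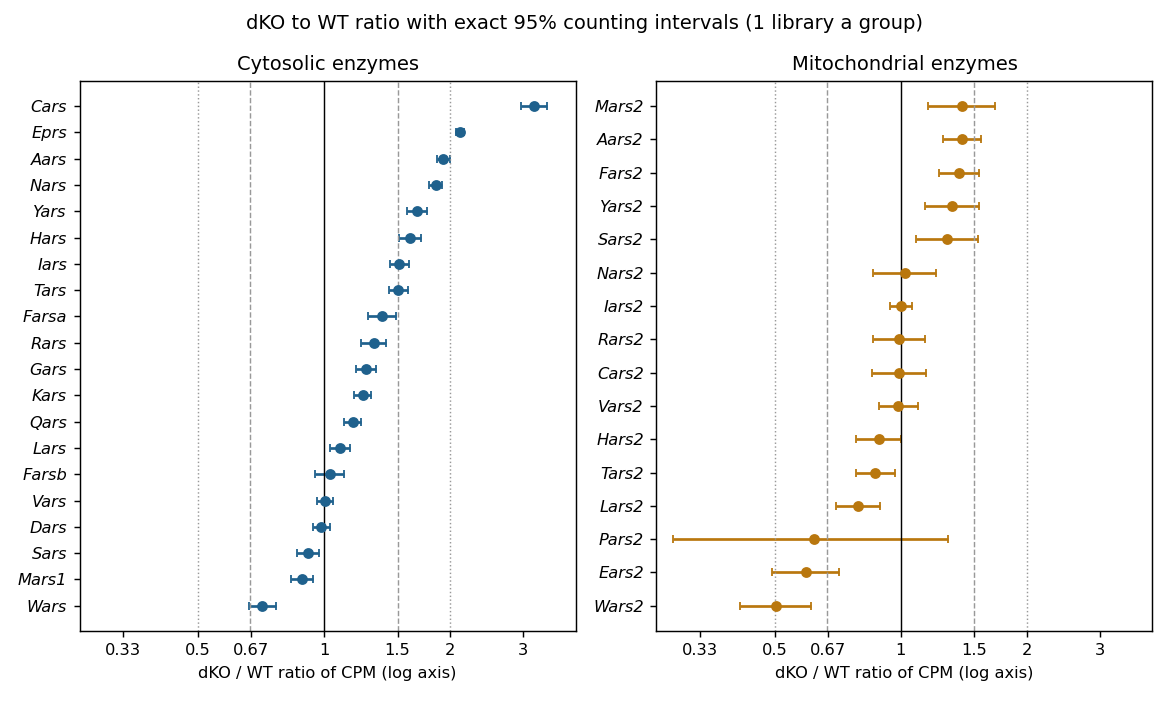
Ratio of dKO to WT CPM for each synthetase on a log axis, with exact 95% counting intervals and lines at 1.5-fold (dashed) and 2-fold (dotted) in either direction. Cars (3.17) and Eprs (2.12) lie beyond 2-fold on the cytosolic side, and Wars2 (0.501) and Ears2 (0.591) have the lowest ratios among mitochondrial enzymes.

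A middle group of cytosolic enzymes was higher by less than 1.5-fold. Farsa (1109 and 1525 counts, log2 ratio 0.45), Rars for arginine (0.38), Gars (0.33), Kars (0.30), Qars for glutamine (0.23) and Lars for leucine (0.13) belonged to it. Qars and Lars turned below 0 under library totals (−0.03 and −0.12). Gars is known for mutations that cause the Charcot-Marie-Tooth neuropathy, and its counts were 2366 and 2977. Vars, Farsb and Dars, for valine, the beta subunit of the phenylalanine enzyme and aspartate, differed by less than counting error, with ratios of 1.01 (0.965 to 1.05), 1.03 (0.950 to 1.12) and 0.986 (0.942 to 1.03). The Farsb rows were divided differently in the libraries although their sum was level: the row of 2091 bases had 451 and 50 counts, and the row of 2218 bases had 0 and 262.

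Wars, Mars1 and Sars were lower in dKO, each by less than 1.5-fold. Wars, the tryptophan enzyme (Entrez 22375, chromosome 12, 108860030 to 108894175), had 1638 counts in WT and 1167 in dKO, or 40.9 and 29.2 CPM, 1.4-fold lower (1.30 to 1.51). Per length it had the lowest mean of the cytosolic enzymes, at 14.5 and 10.4 RPKM. The Wars row of 2764 bases had 211 and 0 counts, and the most abundant row alone gave a log2 ratio of −0.32, against −0.48 for the sum. Wars is known to be induced by interferon gamma. The 10 listed interferon gamma response genes had a median log2 ratio of 0.95, with 6 at least 1.5-fold higher (8.98% of all measured genes) and 0 lower (13.1%). Ifit3 (2.74-fold higher), Gbp2 (2.40-fold), Irf7 (2.20-fold) and Tap1 (2.14-fold) had the largest log2 ratios, and Irf1, a transcription factor of that response, had a log2 ratio of −0.53. Wars and Irf1 had log2 ratios below 0 and the other 9 listed genes above 0, with an interval for Psmb9 that included 1 (0.943 to 1.39). Whether interferon gamma bore on Wars was not tested. Mars1, for methionine, had 2217 and 1966 counts (log2 ratio −0.17) as a sum. Its rows went opposite ways, with 984 and 548 counts in the row of 2963 bases and 1233 and 1418 in the row of 2939 bases, so the more abundant row alone gave 0.18. Sars, for serine, had 2174 and 1994 counts (−0.12) as a sum. Its rows went opposite ways too, with 432 and 573 counts in the row of 3704 bases and 1742 and 1421 in the row of 3632 bases.

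Cytosolic enzymes listed as Atf4 targets had the higher median, with a wide spread. The list of 13 was written from general knowledge of Atf4 target genes, but with earlier results of these data known, so it is not independent of them. Of these, 10 were above 0, against 47.6% of all measured genes and 62.6% of those in the CPM range of the cytosolic enzymes. The median log2 ratio of the 13 was 0.58. At least 1.5-fold higher were 6 (Cars, Eprs, Aars, Nars, Yars and Iars), against 8.98% of all measured genes and 12.6% of those in that range. The list also held Wars, Mars1 and Sars, which were lower. The 7 other cytosolic enzymes (Dars, Farsa, Farsb, Hars, Kars, Qars and Rars) had a median of 0.30, with 1 of 7, Hars, at least 1.5-fold higher. Of those 7, 6 were above 0. With the abundance and length trend removed the medians were 0.41 and 0.05, and under library totals 0.33 and 0.05.

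Promoter sequences were then searched for the site type that Atf4 is known to bind. RefSeq promoter windows on GRCm38.p6, of 250 bases before to 50 after a start, were at hand for 27 of the 36 genes, and Cars, Hars, Hars2, Lars, Nars, Pars2, Rars, Vars and Wars were not among them. The core of that site, the C/EBP-ATF response element, was searched as TGATGNAA on both strands. It was found in 5 of 13 cytosolic and 0 of 14 mitochondrial genes with a window, and in 3.97% of all 32851 windows. The 5 genes were Aars, Iars, Tars, Yars and Gars, all of them on the Atf4 list, with log2 ratios of 0.94, 0.59, 0.58, 0.73 and 0.33. Eprs, which was higher by 2.12-fold, had no match in its window, and neither had the lower Mars1 and Sars. The starts used for Aars and Yars lie inside the spans of these genes given above. The first base of the match lay 112 bases before and, for a second match, 9 bases past the start in Aars, 15 bases before it in Tars, 30 bases before it in Gars, and 7 and 3 bases past it in Iars and Yars. These 5 windows are shown because they hold every match among the members. They read 5′ to 3′ on the strand of the gene, and capitals mark the bases of each match.
Aars, chr8:111033592-111033891, plus strand: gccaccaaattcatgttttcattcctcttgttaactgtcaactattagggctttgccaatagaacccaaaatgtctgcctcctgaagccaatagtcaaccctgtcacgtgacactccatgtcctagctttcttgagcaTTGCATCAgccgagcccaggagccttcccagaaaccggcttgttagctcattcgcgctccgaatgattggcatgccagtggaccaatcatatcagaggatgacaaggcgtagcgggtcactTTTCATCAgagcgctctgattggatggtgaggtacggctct
Iars, chr13:49681880-49682179, plus strand: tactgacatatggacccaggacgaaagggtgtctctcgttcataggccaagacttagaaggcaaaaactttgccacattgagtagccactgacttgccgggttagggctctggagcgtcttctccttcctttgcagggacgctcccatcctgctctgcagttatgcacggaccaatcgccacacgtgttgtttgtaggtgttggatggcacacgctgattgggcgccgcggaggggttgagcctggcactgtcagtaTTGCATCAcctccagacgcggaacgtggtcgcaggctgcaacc
Tars, chr15:11399609-11399908, minus strand: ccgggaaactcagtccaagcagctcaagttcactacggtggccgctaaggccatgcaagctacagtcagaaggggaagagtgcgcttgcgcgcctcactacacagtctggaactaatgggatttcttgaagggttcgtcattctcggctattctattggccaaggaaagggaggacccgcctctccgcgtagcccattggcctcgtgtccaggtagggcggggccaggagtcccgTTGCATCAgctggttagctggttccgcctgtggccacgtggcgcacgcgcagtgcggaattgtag
Yars, chr4:129189653-129189952, plus strand: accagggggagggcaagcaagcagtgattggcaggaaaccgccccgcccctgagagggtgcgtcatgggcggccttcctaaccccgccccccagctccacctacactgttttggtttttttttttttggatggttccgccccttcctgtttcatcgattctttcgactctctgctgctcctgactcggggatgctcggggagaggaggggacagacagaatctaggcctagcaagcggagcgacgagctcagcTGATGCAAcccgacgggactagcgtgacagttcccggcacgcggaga
Gars, chr6:55037751-55038050, plus strand: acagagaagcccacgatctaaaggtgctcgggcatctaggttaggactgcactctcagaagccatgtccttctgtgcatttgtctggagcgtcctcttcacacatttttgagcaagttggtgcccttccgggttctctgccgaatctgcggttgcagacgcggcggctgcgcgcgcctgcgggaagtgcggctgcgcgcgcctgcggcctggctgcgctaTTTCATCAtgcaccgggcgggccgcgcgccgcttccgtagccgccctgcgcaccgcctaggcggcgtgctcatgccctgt
Matches of the core with C in the free position lay in Aars, Iars, Tars and Yars. The palindromic E-box CACGTG, the site type of Myc among others, was found in 4 of 13 cytosolic windows (Aars, Farsb, Iars and Tars), in 1 of 14 mitochondrial windows (Ears2) and in 7.15% of all windows, and it overlapped a match of the core in 0 cases. A match describes the letters of a window and says nothing on whether a factor was bound.

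Among mitochondrial enzymes, 2 of 16 were lower by 1.5-fold, against 13.1% of all measured genes. Wars2, the mitochondrial tryptophan enzyme (Entrez 70560, chromosome 3, 99140107 to 99221230), had 313 counts or 7.82 CPM in WT and 157 counts or 3.92 CPM in dKO, 1.99-fold lower (1.64 to 2.43). Ears2, the mitochondrial glutamate enzyme (Entrez 67417, chromosome 7, 122034162 to 122067094), had 311 counts or 7.77 CPM and 184 counts or 4.60 CPM, 1.69-fold lower (1.4 to 2.04). Both are low mRNAs, and with the trend on abundance and length removed their log2 ratios went from −0.84 to −0.53 and from −0.65 to −0.26. With a pseudocount of 5 they were −0.52 and −0.41, so under either setting neither was 1.5-fold lower. Lars2 (598 and 473 counts), Tars2 (751 and 653) and Hars2 (559 and 495) were lower by less than 1.5-fold. Tars2 was unevenly divided over its rows, with 522 and 309 counts in the row of 2508 bases and 65 and 158 in the row of 2265 bases. The most abundant row of Tars2 alone gave a log2 ratio of −0.70, past 1.5-fold lower. Pars2, the proline enzyme, had 21 and 13 counts (ratio 0.619, 0.285 to 1.30), so no difference was detectable at this depth, and it was the least abundant member per length at 0.170 and 0.105 RPKM.

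The remaining mitochondrial enzymes were level or higher. Vars2, Cars2, Rars2, Iars2 and Nars2 had log2 ratios from −0.02 to 0.03, with intervals of the ratio that included 1. Iars2 was the most abundant mitochondrial member by a wide margin (2189 and 2187 counts, 15.5 and 15.4 RPKM) and the most evenly matched, at a ratio of 0.999 (0.941 to 1.06). The upper end was held by Aars2, for alanine, with 621 and 868 counts and a log2 ratio of 0.46. Fars2 (570 and 786 counts), Mars2 (201 and 281), Yars2 (323 and 428) and Sars2 (243 and 313) followed at 0.44, 0.41, 0.37 and 0.32. No mitochondrial enzyme reached 1.5-fold higher, and with the trend removed Mars2 did so at 0.64.

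Setting the 2 enzymes for an amino acid against each other gave 17 pairs, since Eprs stands opposite Ears2 and Pars2, and Farsa and Farsb opposite Fars2. The ratio of their dKO to WT ratios does not depend on library scaling, but it keeps the trend on abundance and length. Removal of that trend took the difference of the group medians from 0.37 to 0.13, and the pairs were compared without it. The ratio of ratios was above 1, the cytosolic enzyme being relatively higher in dKO, in 13 of 17 pairs. On the log2 ratio with its pseudocount the cytosolic enzyme was higher in 14 of 17, the added pair being Farsa and Fars2 (0.45 and 0.44), with a median difference of 0.44. The 95% counting interval of the ratio of ratios lay above 1 in 12 pairs, below 1 in 3 and included 1 in 2. By at least 0.5 on the log2 scale, 7 pairs favoured the cytosolic and 1 the mitochondrial enzyme.

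The widest pair was that of glutamate, whose enzymes differed in opposite directions. The dKO to WT ratio of Eprs was 3.58 times that of Ears2 (2.97 to 4.33), and it was 3.42 times that of Pars2 (1.63 to 7.44). Cars stood at 3.21 times Cars2 (2.72 to 3.78), where Cars2 was level (369 and 365 counts). For Hars over Hars2 the value was 1.82 (1.58 to 2.09), for Nars over Nars2 1.81 (1.52 to 2.16), for Tars over Tars2 1.73 (1.54 to 1.95) and for Iars over Iars2 1.51 (1.4 to 1.64). The genes of Hars and Hars2 overlap by 4 bases on chromosome 18. The dKO to WT ratio was above 1 for Hars and below 1 for Hars2, whose interval included 1.

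Methionine, serine and phenylalanine went the other way. Mars1 over Mars2 had a ratio of ratios of 0.634 (0.521 to 0.771), the 1 pair at least 0.5 apart in that direction, with Mars1 at −0.17 and Mars2 at 0.41 on the log2 scale. By the most abundant row of each gene, Mars1 had 0.18 and Mars2 0.40, less than 0.5 apart. Sars over Sars2 had 0.712 (0.593 to 0.854) and Farsb over Fars2 0.748 (0.652 to 0.858). By the most abundant row, Sars and Sars2 had log2 ratios of −0.30 and 0.31, and Farsb and Fars2 0.27 and 0.46. Farsa over Fars2, at 0.997 (0.871 to 1.14), and Vars over Vars2, at 1.02 (0.911 to 1.15), differed by less than counting error. For tryptophan both enzymes were lower, and the ratio of ratios was 1.42 (1.15 to 1.76). For alanine and tyrosine both were higher, with 1.38 (1.24 to 1.54) and 1.26 (1.07 to 1.47).

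**Figure D3:**
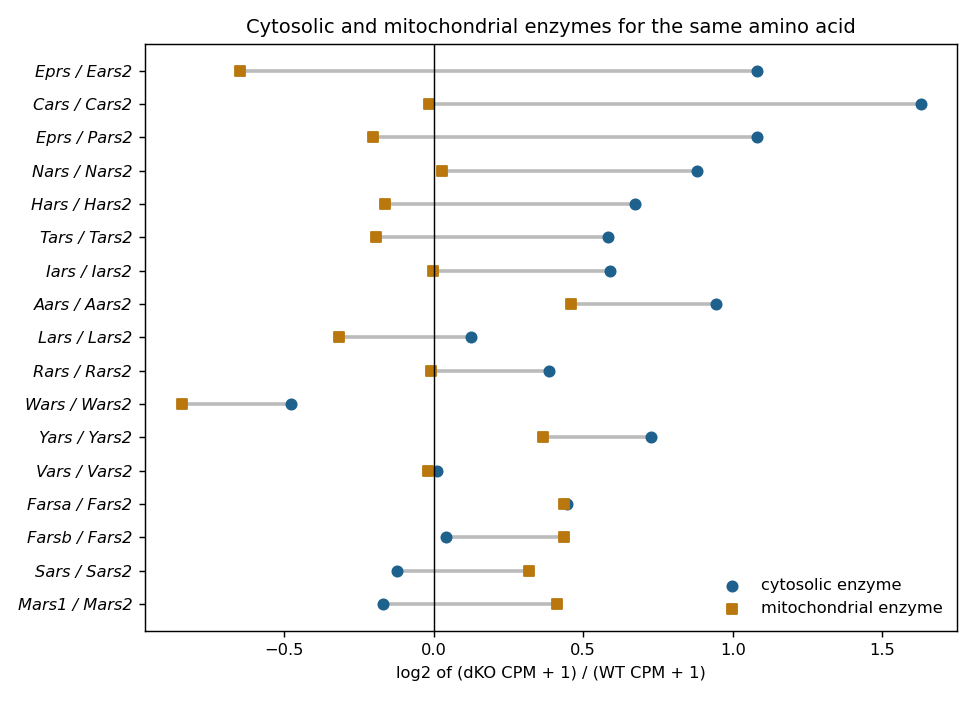
Log2 ratio of the cytosolic (blue circle) and the mitochondrial enzyme (orange square) for each of 17 pairs, ordered by their difference. The cytosolic enzyme lies to the right in 14 pairs, and the order is turned for Mars1 and Mars2, Sars and Sars2, and Farsb and Fars2.

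Levels per transcript length placed most cytosolic mRNAs above their mitochondrial counterparts. The median over enzymes of the mean RPKM was 23.9 for the cytosolic and 4.06 for the mitochondrial group, against 5.76 for all measured genes. Within pairs the cytosolic enzyme had a median of 4.69 times the RPKM of the mitochondrial one in WT and 5.57 times in dKO. The isoleucine pair was turned around in WT, where Iars had 0.863 times the RPKM of Iars2, and in dKO it had 1.31 times. Eprs stood at 44.7 times Ears2 in WT and 160 times in dKO. In dKO the closest pairs were Farsb and Fars2, at 1.28 times, and Iars and Iars2.

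Structural classes and complexes were also compared, and 8.98% of all measured genes were at least 1.5-fold higher. Synthetases fall into class I and class II by the fold of their catalytic domain. Eprs, a joint enzyme, was listed in neither class. The 9 cytosolic class I enzymes had a median log2 ratio of 0.23 with 3 at least 1.5-fold higher, and the 10 class II enzymes had one of 0.39 with 3 higher, each spanning values below and above 0. In animal cells 8 cytosolic enzymes are held in the multi-synthetase complex, and of these 2 (Eprs and Iars) were at least 1.5-fold higher, with a median of 0.26. These medians depended on the setting. With the abundance and length trend removed they were 0.07 for class I, 0.26 for class II and 0.06 for the complex, and under library totals −0.03, 0.14 and 0.01. The complex is built on the scaffold proteins Aimp1, Aimp2 and Eef1e1, whose genes had log2 ratios of 0.32 (1361 and 1708 counts), 0.34 (408 and 529) and 0.63 (399 and 640).

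Other genes of tRNA charging were described by the same rules, beside which 8.98% of all measured genes were at least 1.5-fold higher and 13.1% lower. Of 17 partners of mitochondrial charging and translation, 2 were at least 1.5-fold higher and 1 lower, with a median of −0.05. Trmt10c, a subunit of mitochondrial RNase P, had 573 and 1126 counts (log2 ratio 0.93), and Qrsl1, a subunit of the amidotransferase that makes glutaminyl-tRNA in mitochondria, had 103 and 193 (0.70). The lower gene was the initiation factor gene Mtif2 (483 and 308 counts, −0.59), whose more abundant row alone gave 0.02. Mrrf, the mitochondrial ribosome recycling factor, had 0.48. Synthetase-like and editing proteins had 0 of 9 at least 1.5-fold higher and 1 lower, with a median of −0.23. That gene was Dtd2, a D-aminoacyl-tRNA deacylase (180 and 91 counts, −0.75), and Sepsecs and Tarsl2 had −0.39 and −0.38. Of 7 genes of tRNA export and delivery, 1 was at least 1.5-fold higher, Ssb, the La protein that binds new tRNA transcripts (4199 and 6511 counts, 0.63). The elongation factor genes Eef1g, Eef1b2 and Eef1a1 had 0.58, 0.56 and 0.39, and the list median was 0.39. With the trend removed, Eef1g had 0.05, Eef1b2 0.09, Eef1a1 0.47 and the list a median of 0.09. Ssb was then at 0.31, and at 0.38 under library totals, below the 1.5-fold rule in both settings.

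Atf4 and genes of amino acid synthesis and transport under it were higher in part. Of 26 genes, 9 were at least 1.5-fold higher (8.98% of all measured genes) and 1 lower (13.1%), 5 were at least 2-fold higher (1.92%), and the median log2 ratio was 0.24. Atf4 itself had 25823 counts in WT and 41987 in dKO, 1.63-fold higher (1.60 to 1.65). The largest values were those of Sesn2, a stress-induced sestrin (830 and 2507 counts, 1.55), Cth, the last enzyme of cysteine synthesis from methionine (20 and 102 counts, 1.24), Slc7a5, the light chain of the large neutral amino acid transporter (4144 and 9257 counts, 1.15), and Mthfd2, a mitochondrial folate enzyme (410 and 913 counts, 1.08). Ddit4 was the lower gene (8065 and 5075 counts, −0.66). Asns, the asparagine synthetase gene and a textbook Atf4 target, was level at 136 and 138 counts, and Ddit3 had 1013 and 1115. With the abundance and length trend removed, the list median was 0.17 and the log2 ratio of Atf4 went from 0.70 to 0.19. Under library totals the list median was −0.0032 and Atf4 had 0.45, so Atf4 was below the 1.5-fold rule in both settings.

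**Figure D4:**
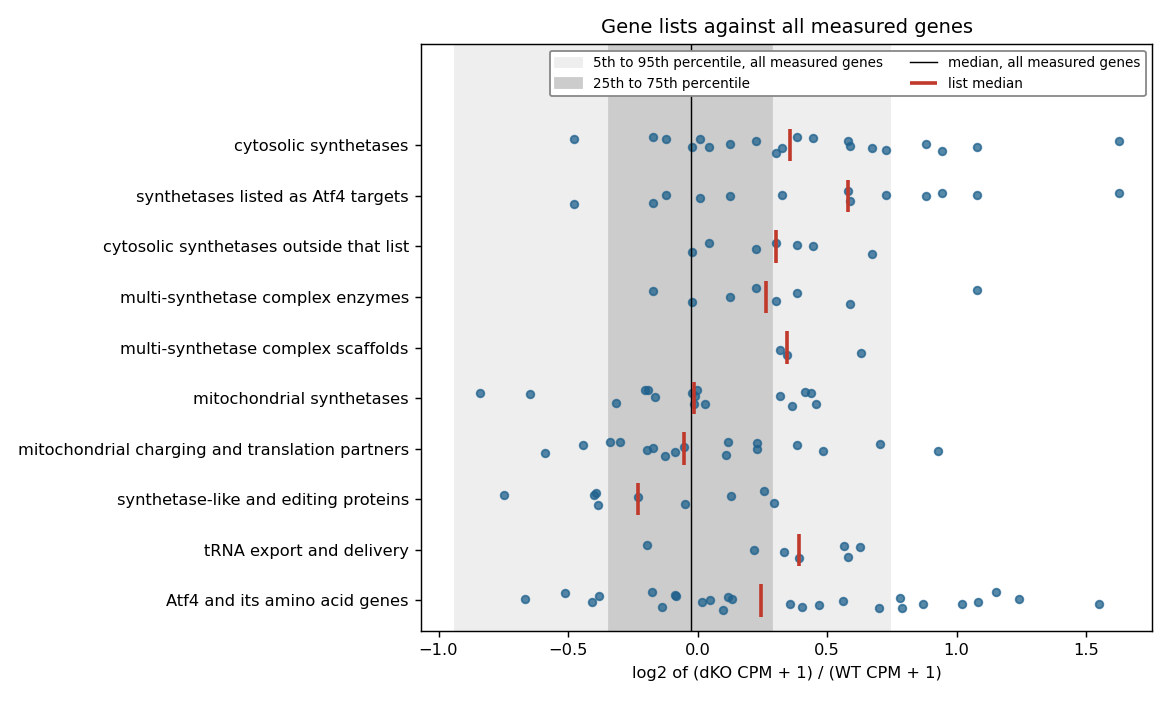
Log2 ratio of each gene (blue point) by list, with the list median as a red bar and the spread of all measured genes as grey bands. The Atf4-listed synthetases have their median at 0.58, and the mitochondrial enzymes have theirs at −0.01, close to the median of all measured genes.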

How the data were processed

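The authors deposited raw read counts, which are whole numbers, for each transcript row, and beside them stand an Entrez ID and the length in bases, per the file headers. TopHat2 2.0.9, bedtools, edgeR and mm10 appear in the submitters' processing notes without their roles. How reads were counted, on which annotation and strand, and whether animals were pooled is not stated, so reads of overlapping or antisense genes cannot be told apart. The 36780 rows covered 24532 gene IDs, and 24462 IDs had a symbol in a RefSeq table on GRCm38. IDs without a symbol took 0.314% of WT and 0.401% of dKO reads and stayed in the totals.

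The rows of a gene were summed, because rows of 1 gene divide its reads unevenly between the libraries. Library sizes were scaled by TMM in edgeR 4.0.16 (factors 1.09 for WT and 0.916 for dKO; R 4.3.3). Ratios of CPM carry exact conditional binomial (Clopper-Pearson) 95% intervals, and ratios of ratios exact conditional odds-ratio intervals (scipy 1.17.1). Both describe counting error alone, because each group has 1 library. PCR copies of a molecule that are counted as reads make such intervals too narrow even for that. RPKM values sum each row's CPM per kilobase. A pseudocount of 1 CPM enters the log2 ratio and understates low genes, so a ratio of CPM printed beside it can differ, and the 1.5-fold and 2-fold rules use the log2 ratio. With 1 library per group no test was made. The fold rule and the interval of the ratio were tested on simulated counts that held counting error alone. Library scaling, trend removal, the pairs and the motif search were not part of that test. The members and all lists were chosen with earlier results of these data known. The naming rule took members at least 1.5-fold apart, the extremes of each list in ratio and in RPKM, pairs at least 0.5 apart in log2 ratio, and up to 4 members of every other list. Others are named to account for all members, for their uneven rows or for their role, after their values were seen. A few genes are not reported here by name. Alternatives were median-ratio scaling as in DESeq2 1.42.0, library totals, the most abundant row, other pseudocounts, count minimums and fold rules, members with 1 row, and removal of a cubic trend on abundance and length.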

Additional observations from a re-analysis of the deposited data

How the results depend on the processing

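The difference between the cytosolic and the mitochondrial median kept its sign in all settings tried, from 0.13 with the abundance and length trend removed to 0.52 among the 12 cytosolic and 10 mitochondrial members with 1 row. The cytosolic median stayed above 0, between 0.11 and 0.51. The mitochondrial median of −0.01 was −0.25 under library totals and turned to 0.088 with the trend removed. The count of cytosolic enzymes at least 1.5-fold higher, 7, was 4 by library totals, 4 after trend removal, 2 by a 2-fold rule and 11 by the most lenient fold rule tried. It was 8 with median-ratio scaling or a pseudocount of 0.1, and 6 by the most abundant row or a pseudocount of 5. The mitochondrial count, 0, was 1 with the trend removed and 4 by the most lenient rule, and the 2 that were 1.5-fold lower, Wars2 and Ears2, were not so with the trend removed or with a pseudocount of 5. By the most abundant row, 3 mitochondrial enzymes were 1.5-fold lower, with Tars2 added. Under library totals, 577 of all measured genes were 1.5-fold higher and 3231 lower, against 1336 and 1955 under TMM, and 1 cytosolic enzyme (Wars) was then 1.5-fold lower. With a pseudocount of 5, 894 were higher and 760 lower. By its most abundant row Mtif2 turned from −0.59 to 0.018. The cause of these shifts was not tested. No paired analysis was possible because each group has 1 library, and for the same reason no library could be left out. Counts of 21 and 13 limit what can be said of Pars2.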
